A study of Mus musculus with 185 samples.

Results

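Arrdc1, Arrdc2, Arrdc3, Arrdc4 and Txnip are 5 genes that code for alpha-arrestins, and their RNA was followed here through the diets of 37 mice. The 5 genes were chosen by name out of 57010 genes in the deposited table, from CPM values (counts per 1000000 counts of a library) of the comparisons below. Their diet differences are therefore a description, with no test. All 5 passed the filter on low counts in both studies. The study asked how fasting and a high-fat diet (HFD) change gene expression in brain areas that human genetics has linked to obesity. Frontal cortex, which lacked such evidence, was its negative control. Male C57BL/6 J mice, an inbred strain obtained at 8 weeks of age, carried no transgene. In the first study they were housed in pairs and given chow, switched to HFD or fasted for 16 h, with 6 mice in 3 cages for each diet. In the second they were housed singly and kept on chow (9 mice used here) or fasted for 24 h (10 mice). Each mouse has 5 columns of counts, 185 in all, from hypothalamus, hippocampus, both colliculi and either frontal cortex (16 h) or zona incerta (24 h).

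The headings of the table give the mouse of a column but not its brain area, so a mouse was taken as 1 replicate, with its 5 columns added together. Depth ran from 57962237 to 161577364 counts per mouse. 27 of the 185 columns were low, with under 1000000 counts or under 16000 genes expected in 500000 counts. The authors discarded a block of 24 h libraries without detectable RNA, and flagged others of both studies for low alignment or as outliers. Columns were not matched to single libraries, so all of these are in the sums, and some pass the limits above. Neuronal markers (Snap25, Syt1, Rbfox3, Stmn2) summed to between 1942 and 2959 CPM in every mouse. The deposited notes say that the superior colliculus tubes of chow mouse 1423 and fasted mouse 1454 of the 24 h study were exchanged, and the study's methods say that the sample records were corrected for it. The 24 h fold changes of the 5 genes, their counts of columns above the chow median and the counts of called genes in the lists are therefore also given without this pair. Levels per kilobase, ratios within a mouse, cell type markers, body weight relations and correlations between genes are given only with this pair included. The mitochondrial share of counts was 3.78% to 4.98% at 16 h and 8.57% to 16.7% at 24 h, and the studies also differed in brain areas, housing and read length, so levels are compared within a study.

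Alpha-arrestins are adaptor proteins of the inner face of membranes. Most carry short proline-rich motifs that bind the WW domains of NEDD4-type ubiquitin ligases, and so bring a receptor or transporter to the enzyme that marks it for internalization. Txnip binds thioredoxin and lowers glucose uptake by removing glucose transporters from the cell surface. Its transcription is a known readout of glucose, through the factors MondoA (Mlxip) and ChREBP (Mlxipl) with their partner Mlx at carbohydrate response elements. Arrdc4 is its close relative and responds to the same factors. Arrdc3 acts on beta-adrenergic receptors and is known from studies of body weight. Arrdc1 recruits the ESCRT protein Tsg101 and drives the release of microvesicles from the cell surface. Arrdc2 is a further adaptor of this kind.

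In GRCm39 with the GENCODE annotation vM39, Txnip (ENSMUSG00000038393) lies on the plus strand of chr3:96465267-96469201 and Arrdc3 (ENSMUSG00000074794) on the plus strand of chr13:81031409-81044161. Arrdc1 (ENSMUSG00000026972) lies on the minus strand of chr2:24815286-24825338, Arrdc2 (ENSMUSG00000002910) on the minus strand of chr8:71287770-71292364 and Arrdc4 (ENSMUSG00000042659) on the minus strand of chr7:68386742-68398999. The whole of Txnip is overlapped by the antisense lncRNA Gm15441, which shares 928 exonic bases with it, and without a stated strand the reads of the pair cannot be told apart. Gm15441 itself was given 0 to 22 counts per mouse, against 683 to 4918 for Txnip. Arrdc3 is overlapped by the lncRNAs 1700023H06Rik (antisense) and Gm60094 (same strand), with 0 exonic bases shared with either.

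The stretches before Txnip, Arrdc4 and Arrdc2 are shown because these 3 promoters hold the most matches to the motifs marked below. They come from RefSeq promoter windows (made on GRCm38), each of which matched GRCm39 exactly at 1 place, and end where the GENCODE gene begins. Capitals mark matches on either strand to CCAAT, to CACGTG (an E-box), to GTAAACA (a forkhead motif) or to CACGNGNNNNNCNCGNG (a carbohydrate response element, in which N is any base). The letters were picked after the sequences had been seen. The lines run 5′ to 3′ on each gene's own strand.
Txnip, chr3:96465023-96465266, plus strand: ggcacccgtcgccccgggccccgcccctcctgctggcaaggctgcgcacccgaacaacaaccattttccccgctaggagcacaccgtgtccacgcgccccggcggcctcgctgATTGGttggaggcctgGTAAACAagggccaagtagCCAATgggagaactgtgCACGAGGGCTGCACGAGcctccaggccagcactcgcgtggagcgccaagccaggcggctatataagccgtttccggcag
Arrdc4, chr7:68399000-68399236, minus strand: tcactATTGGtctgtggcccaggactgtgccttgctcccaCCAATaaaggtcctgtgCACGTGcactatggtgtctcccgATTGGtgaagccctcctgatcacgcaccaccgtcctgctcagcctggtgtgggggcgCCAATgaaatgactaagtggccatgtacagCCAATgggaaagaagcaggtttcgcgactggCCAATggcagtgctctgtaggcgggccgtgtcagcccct
Arrdc2, chr8:71292365-71292614, minus strand: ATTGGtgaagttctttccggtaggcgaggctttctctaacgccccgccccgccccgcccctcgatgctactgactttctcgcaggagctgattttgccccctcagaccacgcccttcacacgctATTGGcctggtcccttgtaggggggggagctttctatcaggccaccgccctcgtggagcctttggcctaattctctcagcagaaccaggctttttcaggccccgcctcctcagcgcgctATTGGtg

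Txnip held the carbohydrate response element 85 to 69 bases before its RefSeq start. The 250 bases before a start hold this motif in 92 of 32851 RefSeq windows (0.280%). Txnip also held the forkhead letters, found in 3.17% of windows, 121 to 115 bases before its start, and 2 CCAAT boxes. Arrdc4 held CACGTG, found in 6.02% of windows, 193 to 188 bases before its start. It also held 6 CCAAT boxes, a count reached by 19 of 32851 windows (0.0578%), while 33.8% of windows hold at least 1. Arrdc2 held 3 CCAAT boxes and Arrdc3 held 1 in 2 of its 3 windows, and Arrdc1 matched none of the motifs. The letters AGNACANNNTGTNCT, a glucocorticoid response element, stand in 0.0609% of windows and were in none of the windows of the 5 genes. These are matches of letters and not measured binding.

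**Figure D1:**
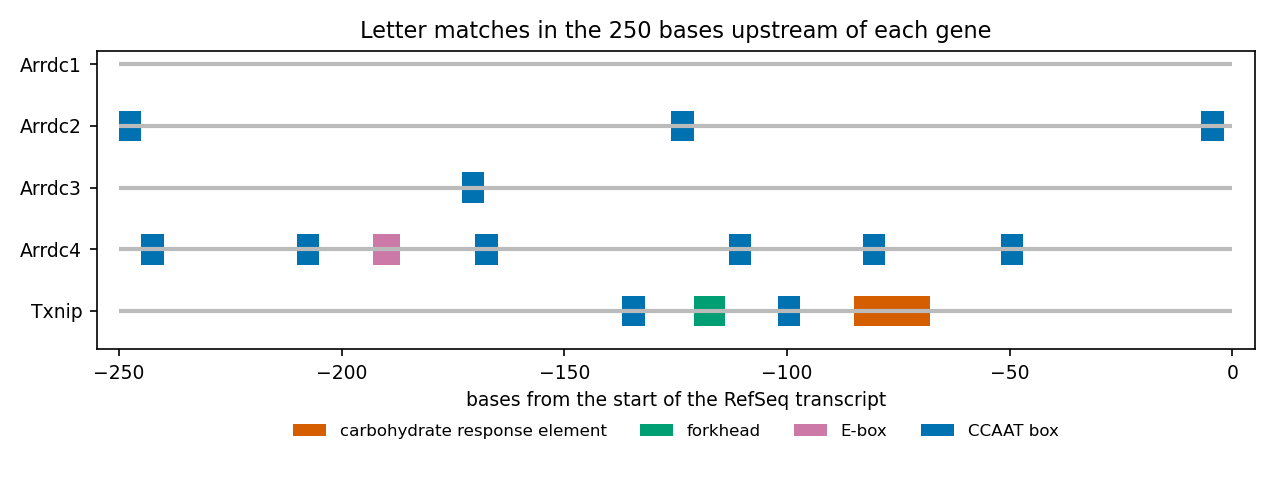
Matches to 4 motifs in the 250 bases before the RefSeq start of each gene (horizontal axis, bases from the start), with 1 row per gene and coloured blocks drawn to scale. The first of the RefSeq windows is shown for Arrdc3. Arrdc4 has 6 CCAAT boxes, and Txnip is the one of the 5 with the carbohydrate response element.

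Per kilobase of exon, the scale on which levels of different genes can be set side by side, Arrdc3 was the highest of the 5 in chow mice of the 24 h study at 7.46 ± 0.772 CPM per kb (SD, n = 9). Txnip followed at 4.31 ± 0.752, Arrdc1 at 3.13 ± 0.474, Arrdc2 at 2.91 ± 0.741 and Arrdc4 at 1.55 ± 0.172 CPM per kb. The ranges of neighbours in this order overlapped between Txnip and Arrdc1 and between Arrdc1 and Arrdc2, but not between Arrdc3 and Txnip or between Arrdc2 and Arrdc4. In the 16 h study the chow order was Arrdc3 at 7.03 ± 0.453, Arrdc1 at 4.29 ± 0.205, Txnip at 3.98 ± 0.248, Arrdc2 at 3.07 ± 0.231 and Arrdc4 at 1.74 ± 0.259 CPM per kb (SD, n = 6), and Arrdc1 and Txnip overlapped there while the other neighbours did not. After the 24 h fast Arrdc2 stood first, at 13.7 ± 3.06, before Arrdc3 at 11.0 ± 1.46, Txnip at 8.21 ± 1.40, Arrdc1 at 2.99 ± 0.550 and Arrdc4 at 1.77 ± 0.241 CPM per kb (SD, n = 10). In fasted mice the ranges of Arrdc2 and Arrdc3, of Arrdc3 and Txnip, and of Arrdc1 and Arrdc4 overlapped, and Txnip stood clear of Arrdc1.

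The 24 h fast was accompanied by higher RNA of Arrdc2, Txnip and Arrdc3. Arrdc2 was 4.91-fold and Txnip 1.98-fold higher than in chow mice, with no overlap between the groups. Arrdc3 was 1.54-fold higher, with ranges that touched. Arrdc4 and Arrdc1 were not called different. The fit was edgeR's quasi-likelihood test over 29011 genes, in which a gene is called at a Benjamini-Hochberg adjusted p under 0.05 and 5.78% of genes were called higher. Against this background 3 of the 5 genes were called, a count that the choice of the genes had used.

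Arrdc2 ran from 7.57 to 15.9 CPM in the 9 chow mice, with a median of 8.81, and from 32.4 to 58.9 CPM in the 10 fasted mice, with a median of 46.7. Every fasted mouse stood above every chow mouse, and mouse 1454 was among the lowest of the fasted group at 32.5 CPM. The fitted log2 fold change was 2.30 ± 0.15 (SE), and the group means were 9.78 ± 2.49 and 46.1 ± 10.3 CPM (SD). The highest chow value belonged to mouse 1423, and the next chow mouse stood at 10.4 CPM. Without mice 1423 and 1454 the log2 fold change was 2.46 and the chow mean 9.02 ± 1.05 CPM (SD, n = 8).

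Txnip ran from 9.13 to 16.2 CPM in chow mice, with a median of 14.2, and from 20.7 to 33.9 CPM in fasted mice, with a median of 24.7. The lowest fasted mouse again stood above the highest chow mouse. Ranges without overlap in this direction were found for 207 of the 29011 genes (0.714%), Arrdc2 and Txnip among them. The log2 fold change was 0.98 ± 0.11 (SE), with group means of 13.6 ± 2.38 and 26.0 ± 4.42 CPM (SD), and 1.05 without mice 1423 and 1454.

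Arrdc3 ran from 54.8 to 71.5 CPM in chow mice, with a median of 64.5, and from 69.9 to 118 CPM in fasted mice, with a median of 96.8. One fasted mouse, 1454, stood within the chow range, and the other 9 stood at 82.1 CPM or more. The log2 fold change was 0.62 ± 0.08 (SE), with group means of 63.8 ± 6.61 and 94.5 ± 12.5 CPM (SD). Without mice 1423 and 1454 it was 0.67 and the ranges no longer touched, at 54.8 to 71.5 CPM on chow and 82.1 to 118 CPM in fasted mice. The antisense lncRNA 1700023H06Rik, which shares the locus, was called higher as well, with a log2 fold change of 0.53 ± 0.09 (SE) from 3.58 ± 0.666 to 4.96 ± 0.846 CPM (SD).

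Arrdc4 ran from 5.92 to 8.29 CPM in chow mice, with a median of 7.09, and from 6.22 to 9.75 CPM in fasted mice, with a median of 7.98. The groups overlapped over most of their range, and the log2 fold change of 0.24 ± 0.09 (SE) was not called. Arrdc1 ran from 6.64 to 10.2 CPM in chow mice, with a median of 8.36, and from 4.97 to 9.81 CPM in fasted mice, with a median of 8.39. Its log2 fold change was -0.01 ± 0.10 (SE), and it was not called. The group means were 7.03 ± 0.780 and 8.04 ± 1.10 CPM for Arrdc4 and 8.40 ± 1.27 and 8.01 ± 1.47 CPM for Arrdc1 (SD). Without mice 1423 and 1454 the log2 fold changes were 0.19 for Arrdc4 and 0.02 for Arrdc1.

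**Figure D2:**
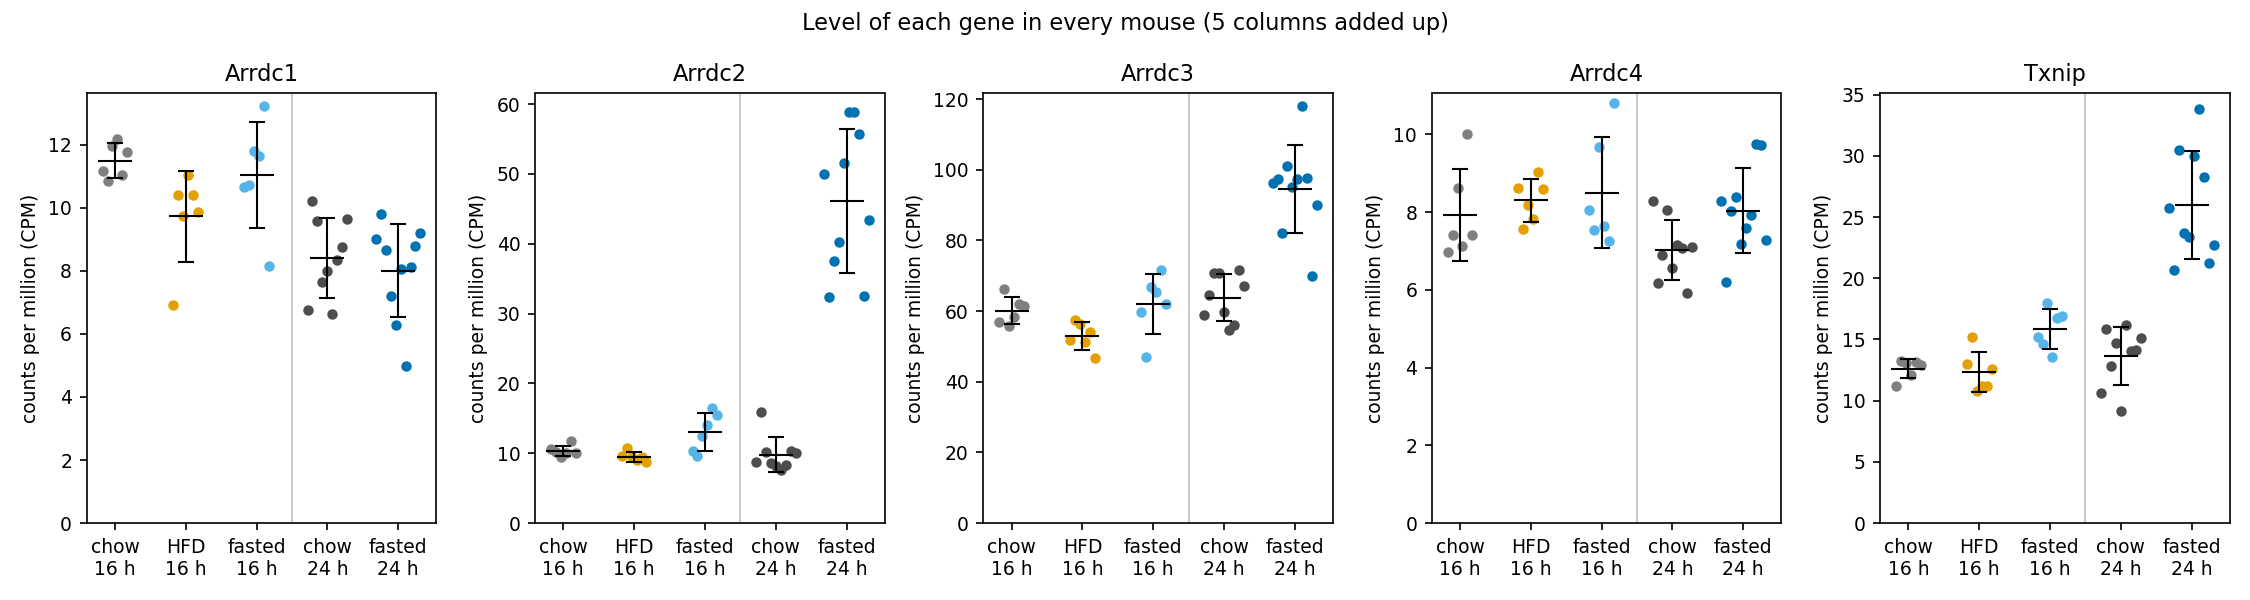
CPM (vertical axes, from 0) of each gene in each of the 37 mice, with 1 point per mouse, 5 columns added up, and the group mean with its SD as a bar; the vertical line separates the studies. The 10 fasted mice of the 24 h study stand above all 9 chow mice for Arrdc2 and Txnip, and the chow mouse at 15.9 CPM of Arrdc2 is mouse 1423.

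The columns of a mouse, which are its single libraries, gave the same picture for Arrdc2 and a more mixed one for the other genes. 34 chow and 38 fasted columns of the 24 h study passed the depth limits, with libraries that the authors had flagged among them. Columns of 1 mouse share the animal, so they are described and not tested. Arrdc2 ran from 6.92 to 30.5 CPM in chow columns (median 8.73) and from 9.98 to 118 CPM in fasted columns (median 40.2). All 38 fasted columns lay above the chow median and 31 lay above the highest chow column. The chow column at 30.5 CPM belonged to mouse 1423, whose other passing columns stood at 7.23, 9.28 and 10.2 CPM. The fasted column at 9.98 CPM belonged to mouse 1454, whose other passing columns stood at 21.7, 30.9 and 36.2 CPM. Without these mice, all 34 remaining fasted columns, from 20.8 to 118 CPM, lay above all 30 chow columns, from 6.92 to 18.2 CPM.

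Txnip ran from 5.87 to 29.9 CPM in chow columns and from 9.23 to 82.4 CPM in fasted columns, and 37 of 38 fasted columns lay above the chow median of 12.8 CPM. The exception at 9.23 CPM was again a column of mouse 1454, and 11 fasted columns lay above the highest chow column. Arrdc3 lay above the chow median of 60.6 CPM in 34 of 38 fasted columns. Arrdc1 did so in 19 of 38, with medians of 8.69 CPM in chow and 8.61 CPM in fasted columns. Arrdc4 did so in 16 of 38, and its median column was 6.84 CPM on chow and 6.65 CPM in fasted mice, opposite in order to the sums per mouse. The highest fasted columns of Arrdc4 reached 18.4 CPM, against 12.4 CPM on chow. Without mice 1423 and 1454, 34 of 34 fasted columns of Txnip lay above the median of the remaining chow columns. The same count was 33 of 34 for Arrdc3, 19 of 34 for Arrdc1 and 14 of 34 for Arrdc4.

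Columns of the same mouse differed less in Arrdc2 on chow than after the fast. The ratio of the highest to the lowest passing column of a mouse had a median of 1.37 in chow mice and 2.18 in fasted mice of the 24 h study. The same median ratio was 2.36 and 3.19 for Arrdc1, 1.42 and 1.94 for Arrdc3, 1.69 and 2.53 for Arrdc4, and 2.45 and 2.32 for Txnip. Which brain area a high column came from was not analysed here.

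**Figure D3:**
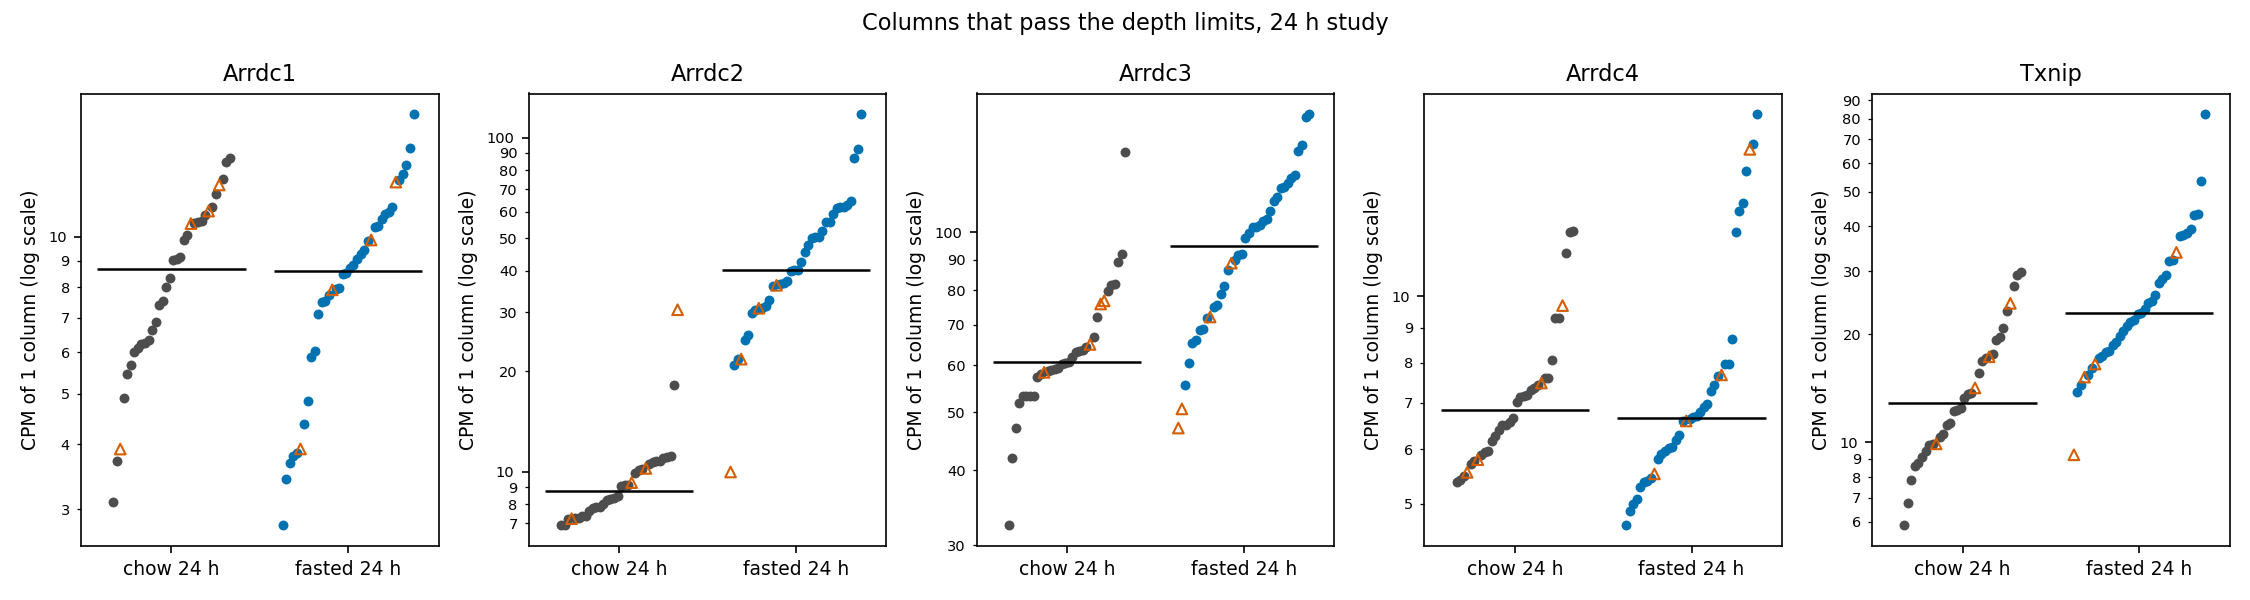
CPM on a log scale (vertical axes) of every column of the 24 h study that passes the depth limits, 34 chow and 38 fasted, sorted within each group, with the group median as a line. Triangles are columns of mice 1423 and 1454. For Arrdc2 a triangle at 30.5 CPM stands among the chow columns and one at 9.98 CPM among the fasted columns.

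At 16 h of fasting the same comparison gave smaller differences. Txnip was 1.27-fold and Arrdc2 1.28-fold higher in fasted than in chow mice, Arrdc4 1.09-fold and Arrdc3 1.05-fold higher, and Arrdc1 0.970-fold as high. None of the 5 was among the genes called, of which there were 0 of 29746 (0%) with edgeR, 2267 at an unadjusted p under 0.05, and 19 with DESeq2, which called none of the 5 either. These fits are of 5 brain areas added together, in which a change limited to 1 area can be diluted. The authors compared each area alone and list differentially expressed genes in some areas at 16 h, for fasted and for HFD against chow. The 3 comparisons of the 16 h study share their groups of mice and are set side by side without a count of agreement.

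Txnip ran from 11.2 to 13.2 CPM in the 6 chow mice (median 13.0), from 10.8 to 15.2 CPM on HFD (median 11.9) and from 13.6 to 18.0 CPM in fasted mice (median 15.9). All 6 fasted mice stood above all 6 chow mice, which 36 of 29746 genes did (0.121%), while fasted and HFD mice overlapped. The group means were 12.6 ± 0.785, 12.3 ± 1.65 and 15.8 ± 1.65 CPM (SD, n = 6 each). The log2 fold change was 0.35 ± 0.08 (SE) for fasted against chow, 0.35 ± 0.08 for fasted against HFD and -0.00 ± 0.08 for HFD against chow. Arrdc2 ran from 9.50 to 11.7 CPM on chow (median 10.1), from 8.69 to 10.8 CPM on HFD (median 9.51) and from 9.62 to 16.5 CPM in fasted mice (median 13.2), with means of 10.3 ± 0.775, 9.53 ± 0.706 and 13.1 ± 2.77 CPM (SD). Fasted mice overlapped both other groups. Its log2 fold change was 0.36 ± 0.11 (SE) for fasted against chow, 0.44 ± 0.11 for fasted against HFD and -0.08 ± 0.11 for HFD against chow.

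The fasted values of Arrdc2 at 16 h fell into cages. The cage that started first held 10.3 and 9.62 CPM, within the chow range, the next held 12.5 and 14.0 CPM, and the last held 16.5 and 15.5 CPM. Chow cages in the same order held 10.6 and 10.2, then 9.50 and 10.0, then 11.7 and 9.99 CPM. Mice of a cage shared their start time, though not their exact end time, so cage and start time cannot be told apart. Body weight of the fasted mice changed by -7.52% to -1.30%, with the largest losses in the last cage, and its part was not tested. Mice 10, 11 and 12, at 14.0, 16.5 and 15.5 CPM, each had a low column with 0 counts of Arrdc2, while mice 7, 8 and 9 had none. The order was seen in these values, and neither it nor the part of the low columns in it was tested. With the round of cages as a covariate the log2 fold change of Arrdc2 for fasted against chow was 0.35. By single columns, 18 of 27 fasted columns lay above the chow median for Arrdc2 and 22 of 27 for Txnip.

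Arrdc3 ran from 55.8 to 66.2 CPM on chow, from 46.8 to 57.5 CPM on HFD and from 47.0 to 71.6 CPM in fasted mice of the 16 h study. The fasted mice spread over nearly the whole range of both other groups and held the highest value of all, and the log2 fold change was 0.07 ± 0.07 (SE) against chow and 0.22 ± 0.07 against HFD. The means of Arrdc3 were 60.1 ± 3.88, 53.0 ± 3.89 and 62.1 ± 8.45 CPM (SD). On HFD, Arrdc3 was at -0.15 ± 0.07 and Arrdc1 at -0.21 ± 0.10 (log2 fold change ± SE against chow), with overlapping ranges. Arrdc1 ran from 10.8 to 12.2 CPM on chow, from 6.93 to 11.1 CPM on HFD and from 8.16 to 13.2 CPM in fasted mice. Arrdc4 ran from 6.98 to 10.0, 7.56 to 9.04 and 7.25 to 10.8 CPM in the same groups, which overlapped throughout. Its log2 fold change was 0.12 ± 0.11 (SE) for fasted and 0.10 ± 0.11 for HFD against chow.

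For HFD against chow, edgeR called 0 of 29746 genes (0%), with 2914 at an unadjusted p under 0.05 and 5 called by DESeq2, none of them one of the 5 alpha-arrestins. For fasted against HFD, 65 of 29746 genes (0.219%) were called and none was an alpha-arrestin of the 5, with log2 fold changes between 0.02 for Arrdc4 and 0.44 for Arrdc2. DESeq2 called Arrdc2 and Txnip in that comparison, among 354 genes. Ranges without overlap were found for 197 genes higher in fasted than in HFD mice (0.662%), and for none of the 5.

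**Figure D4:**
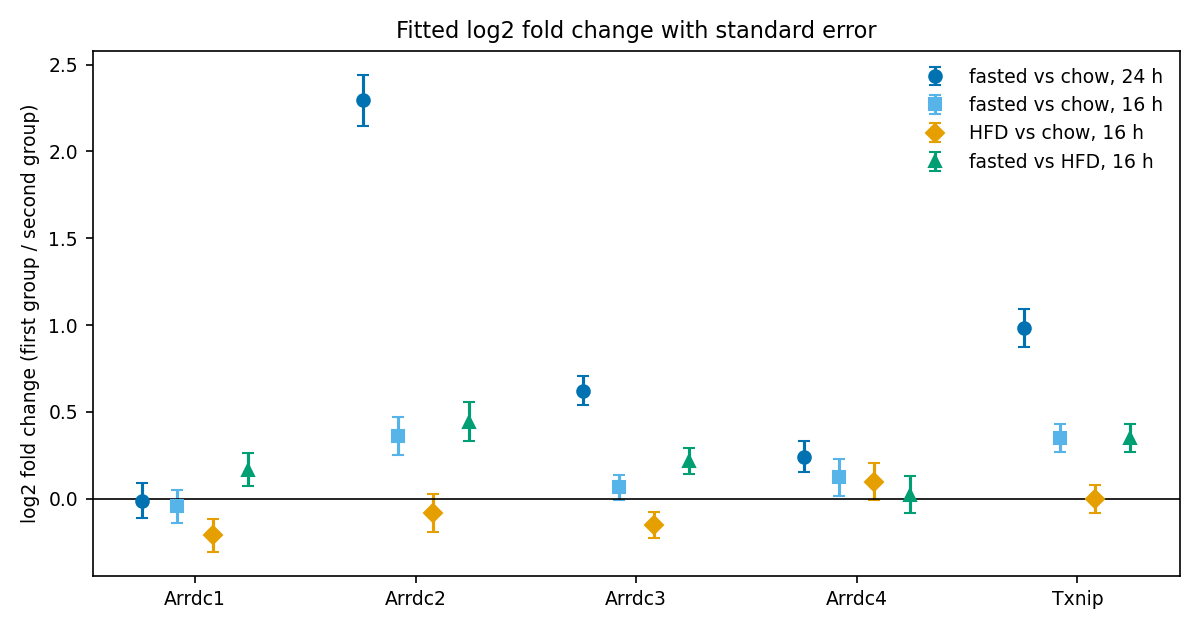
Fitted log2 fold change (vertical axis) with its SE for each of the 5 genes in the 4 comparisons, marked by colour and shape. Arrdc2 reaches 2.30 at 24 h and 0.36 at 16 h for fasted against chow, and the HFD values lie between -0.21 and 0.10.

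Arrdc5 (ENSMUSG00000073380), the sixth alpha-arrestin gene, was near the limit of detection with 1 to 39 counts per mouse at 24 h. It rose from 0.0794 ± 0.0470 to 0.167 ± 0.0838 CPM (SD) with the 24 h fast (log2 fold change 1.11 ± 0.33 SE, edgeR adjusted p = 0.0338), and the groups overlapped. The call was lost without a filter on low counts, at a log2 fold change of 1.12, without mice 1423 and 1454, at 1.11, and in 9 of 19 fits that left out 1 mouse, in which it ran between 1.01 and 1.30 over all 19. At 16 h Arrdc5 was not called, with log2 fold changes of 0.84 ± 0.21 for fasted and 0.79 ± 0.22 for HFD against chow (SE). The antisense lncRNA Gm64477 shares 523 exonic bases with it.

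Genes around the alpha-arrestins were counted in lists set up from known biology with earlier results of these data in view. The background at 24 h was 5.78% of genes called higher and 5.62% called lower, or 11.4% in either direction. Most of the machinery that the adaptors work with was not called, as was true of most genes. Among 9 other genes of the arrestin fold, 3 rose and 0 fell, with a median log2 fold change of 0.10 (median of all genes -0.0044). These were Arrdc5, Arr3 (cone arrestin) at 0.54 ± 0.16 (SE, edgeR adjusted p = 0.0334) and Vps26b (a retromer subunit) at 0.17 ± 0.05 (SE, edgeR adjusted p = 0.0186). Without mice 1423 and 1454 the count was 1, as Arr3 was lost as well, and Arr3 was lost in 9 of 19 fits that left out 1 mouse. The remaining call, Vps26b, was lost with equal weight per column in limma, at 0.16, and at 0.05 when low columns were left out of that fit as well. The beta-arrestins Arrb1, at 0.03 ± 0.08, and Arrb2, at 0.01 ± 0.07 (SE), did not pass the test.

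None of 11 NEDD4-type ubiquitin ligases and their adaptors was called by edgeR or by DESeq2. Of them 1 had an unadjusted p under 0.05, as did 7033 of all 29011 genes. The log2 fold changes of the list ran from -0.15 to 0.28 with a median of -0.02. Of 11 ESCRT and microvesicle genes (median 0.07), 1 rose, the ATPase gene Vps4b, at 0.14 ± 0.04 (SE, edgeR adjusted p = 0.0134), a call that 2 of 7 other settings lost. Tsg101, the ESCRT partner of Arrdc1, stood at 0.11 ± 0.06 (SE) and did not pass the test.

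Of 13 glucose-sensing and thioredoxin genes (median log2 fold change 0.07), 1 rose, Slc2a1, which codes for the glucose transporter GLUT1 of the blood-brain barrier. Its level went from 72.1 ± 10.3 to 133 ± 20.4 CPM (SD), a log2 fold change of 0.94 ± 0.09 (SE, edgeR adjusted p = 1.1e-06). The factors that read glucose at the Txnip promoter did not pass the test, with log2 fold changes of 0.08 ± 0.05 for Mlxip, 0.01 ± 0.09 for Mlxipl and 0.05 ± 0.06 for Mlx (SE). Thioredoxin itself, Txn1, stood at -0.05 ± 0.10 (SE).

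Of 11 receptors and transporters reported as cargo of alpha-arrestins (median log2 fold change 0.08), 2 rose and 1 fell. Slc2a4, the insulin-dependent glucose transporter GLUT4, went from 1.92 ± 0.346 to 4.19 ± 1.28 CPM (SD), a log2 fold change of 1.18 ± 0.15 (SE, edgeR adjusted p = 1.888e-05). The insulin receptor gene Insr rose by 0.23 ± 0.04 on the log2 scale (SE, edgeR adjusted p = 0.000592), and was not called with equal weight per column in limma, at 0.18. Itgb4, integrin beta 4, fell by 0.52 ± 0.13 on the log2 scale (SE, edgeR adjusted p = 0.00960), from 24.7 ± 5.24 to 16.6 ± 3.73 CPM (SD). The adrenergic receptor genes Adrb1, at 0.08 ± 0.20, and Adrb3, at -0.12 ± 0.14 (SE), did not pass the test.

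All 12 glucocorticoid-induced genes rose at 24 h, with a median log2 fold change of 1.47. The largest were Plin4 (a lipid droplet protein) at 3.27 ± 0.24, Sgk1 (a kinase) at 2.36 ± 0.15, Sult1a1 (a sulfotransferase) at 1.87 ± 0.18 and Fkbp5 (a chaperone of the glucocorticoid receptor) at 1.81 ± 0.18 (log2 fold change ± SE, with edgeR adjusted p of 2.371e-08, 5.165e-09, 8.778e-07 and 1.1e-06). These genes were picked with earlier results in view, so their direction is no independent evidence. Arrdc2, at 2.30, lay between Sgk1 and Sult1a1 in size. Without mice 1423 and 1454, the counts of called genes were the same for 5 of the 6 lists, that of the arrestin fold being the exception. At 16 h, edgeR called 0 genes of the 6 lists in each of the 3 comparisons. In fasted against chow mice 7 of the 12 glucocorticoid-induced genes had an unadjusted p under 0.05, with a list median of 0.25, and DESeq2 called 0 of them. The same count at an unadjusted p was 3 for HFD against chow and 5 for fasted against HFD, where DESeq2 called 1 of them. Over all 29746 genes it was 2267 for fasted and 2914 for HFD against chow, and 3386 for fasted against HFD. In the other 5 lists the count at an unadjusted p was between 0 and 3 genes in each comparison. DESeq2 called 1 gene of these lists in all, of the cargo list for fasted against HFD.

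**Figure D5:**
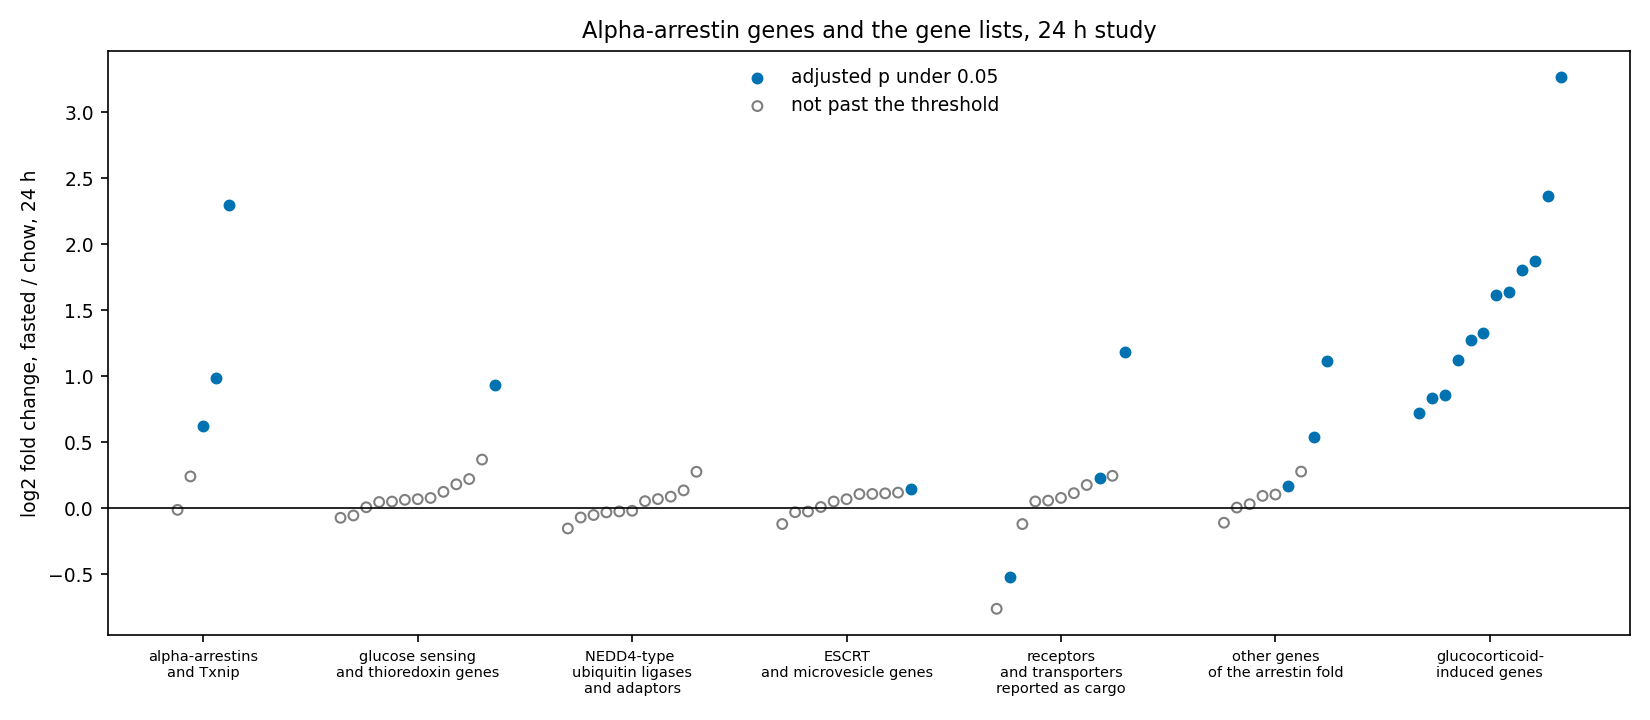
Log2 fold change of fasted over chow mice at 24 h (vertical axis) for the 5 alpha-arrestin genes and the 6 lists, with 1 point per gene, filled where the adjusted p was under 0.05. All 12 glucocorticoid-induced genes are filled and lie above 0.7, and none of the 11 NEDD4-type genes is filled.

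Markers of cell types moved at 24 h too. Of 4 markers each, 3 fell for microglia (summed level 84.9 to 122 CPM on chow and 65.1 to 113 CPM in fasted mice), 3 for meninges (39.4 to 162 and 35.4 to 76.7 CPM), 2 for endothelial cells (163 to 270 and 134 to 218 CPM) and 1 for astrocytes (1240 to 1473 and 1154 to 1571 CPM). None of the markers of neurons, oligodendrocytes, choroid plexus, blood cells or pituitary was called by edgeR or DESeq2, and none of these had an unadjusted p under 0.05. The summed markers spread widely between mice for choroid plexus, from 23.2 to 1747 CPM on chow and from 30.2 to 4057 CPM in fasted mice, and for pituitary, from 2.54 to 1123 and from 2.66 to 263 CPM. At 16 h, edgeR called 1 endothelial marker, higher in fasted than in HFD mice. For HFD against chow, 3 of 4 choroid plexus markers had an unadjusted p under 0.05, as did 2914 of all 29746 genes. For fasted against HFD, where DESeq2 called Arrdc2 and Txnip, 4 of 5 blood cell markers had an unadjusted p under 0.05, as did 3386 of 29746 genes. The blood cell list had a median of -0.51, and edgeR called 0 of its markers and DESeq2 called 2. Their summed level was 103 to 167 CPM on HFD and 71.5 to 120 CPM in fasted mice. DESeq2 also called 1 endothelial marker for fasted against chow at 16 h. No marker was at 0 in all mice of a group. The part of these shifts in the alpha-arrestin values was not tested. In such bulk tissue, fewer cells of a type and less RNA per cell cannot be told apart.

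Differences between mice of the same group, which the choice of the genes had not used, were compared with body weight change. Chow mice of the 24 h study changed by -0.386% to 3.46% of their start weight and fasted mice by -21.4% to -17.1%. Of 10 relations (5 genes in 2 groups), none passed the adjustment, with the lowest adjusted p at 0.112 for Arrdc4 in chow mice (Pearson r = 0.77, exact two-sided permutation p = 0.0112; Spearman rho = 0.55, exact permutation p = 0.128, adjusted p = 0.449; n = 9). That relation rested on the 2 mice farthest from the median weight change, without which r was 0.24 (n = 7). In fasted mice the sign for Arrdc4 was the opposite (r = -0.55, permutation p = 0.0955, adjusted p = 0.439; rho = -0.47, p = 0.179, adjusted p = 0.449; n = 10), and r was -0.05 without the 2 farthest mice. Txnip had an r of -0.54 in chow mice (exact two-sided permutation p = 0.132, adjusted p = 0.439; rho = -0.66, p = 0.0588, adjusted p = 0.449; n = 9; r = -0.52 without the 2 farthest mice) and Arrdc2 an r of -0.14 in fasted mice (permutation p = 0.704, adjusted p = 0.782; rho = -0.16, p = 0.654, adjusted p = 0.818; n = 10; r = 0.48 without the 2 farthest mice).

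Across the 37 mice, after the mean of each of the 5 groups had been subtracted from log2 CPM, Arrdc2 varied most closely with Arrdc3 among the 5 genes (r = 0.62), followed by Arrdc2 with Txnip (r = 0.47), Arrdc1 with Arrdc4 (r = -0.37) and Arrdc3 with Txnip (r = 0.34). Within a study the first was 0.75 at 16 h (18 mice) and 0.57 at 24 h (19 mice). Each point is the sum of 5 libraries of a mouse, weighted by their depth, so shared depth and shared brain areas enter these values. They are a description.

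Among 19055 other genes with a mean of at least 1 CPM, the pattern most like Arrdc2 on this measure was that of Sgk1 (r = 0.84), then Itgad (r = 0.83) and Il12rb1 (r = 0.81). For Arrdc3 these were Carhsp1 (r = 0.91), Mobp (r = 0.88) and Dbndd2 (r = 0.87). For Txnip they included Anxa3 (r = 0.73) and Zbtb8os (r = 0.73). For Arrdc1 they were Rtbdn (r = 0.89), Bean1 (r = 0.87) and Pcdhgc4 (r = 0.87), and for Arrdc4 Zfp189 (r = 0.86), Arpc5 (r = 0.85) and Ip6k2 (r = 0.85). For Sgk1 with Arrdc2 the value was 0.843 at 24 h and 0.845 at 16 h, while for Anxa3 with Txnip it was 0.77 at 24 h and 0.68 at 16 h.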

How the data were processed

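Bulk RNA-seq of 5 brain areas per mouse was measured in 37 mice. The authors sequenced rRNA-depleted libraries made with a directional kit, aligned reads to GRCm39 with STAR 2.7.3a (gene count mode) after bcl2fastq 2.20.0, and deposited raw counts per Ensembl gene, 57010 genes in 185 columns, without normalization. Which strand was counted, and with which gene annotation, is not given in the sources used here. Columns were assigned to mice by their headings, never to brain areas, and 0 columns were left unused.

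Counts of the 5 columns of a mouse were added up. Main levels are CPM of that total. The test was the quasi-likelihood one of edgeR 4.0.16 (R 4.3.3), after filterByExpr, TMM scaling and estimateDisp, with Benjamini-Hochberg adjustment, each study in its own fit and the 3 diets of 16 h together, with the SE taken as the log2 fold change over the root of F. The replicate is the mouse, and mice of the 16 h study share cages. Alternatives used DESeq2 1.42.0 (sum of counts over 10), limma 3.58.1, other size factors, no filter, low columns left out, cage sums, cage round and mice left out. The script was tested on simulated counts with the same fixed dispersion for all genes, without failed libraries or shared cages. It recovered 200 of 200 changed genes in each study, with 16 false calls at 24 h and 11 at 16 h. This was a check of the code and not of the calls in the real data. Permutation tests (exact, or 100000 resamples for 10 mice) used Python 3.11.15 with numpy 2.4.6 and scipy 1.17.1 (adjustment).

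The 5 genes and the lists were chosen with earlier results of these data known. Named are the 5 genes, Arrdc5, per list up to 4 genes with the largest change called at 24 h (mean log2 CPM not under 0), and the 3 most alike genes for each (log2 CPM, prior count 2), apart from items that are not reported here. Genes of the lists that were not called, and the lncRNAs over the loci, were named for their role after their values had been seen. The lowest count of a mouse was 288 for Arrdc1 and 460 for the other 4 genes, and p-values measure the spread between mice. At 16 h cages and not single mice were assigned to a diet, so p-values there do not measure the spread between independent units.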

Additional observations from a re-analysis of the deposited data

Results flagged for a closer look

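Single mice that stood apart within their group were looked for in the 25 sets of values of the 5 genes in the 5 groups with Dixon's criterion at the 95% level, which chance meets in about 1 set in 20. 2 values were found. The Arrdc2 level of chow mouse 1423 in the 24 h study was 15.9 CPM, with the next of the 9 mice at 10.4 CPM. This is one of the mice whose superior colliculus tube the deposited notes list as exchanged, and 1 of its 4 passing columns stood at 30.5 CPM. Without it and mouse 1454, the log2 fold change of Arrdc2 went from 2.30 to 2.46. The Arrdc1 level of HFD mouse 13 was 6.93 CPM, with the next of the 6 mice at 9.72 CPM. Without single mice, the log2 fold change of Arrdc1 for HFD against chow ran from -0.25 to -0.13.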

How the results depend on the processing

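At 24 h, the log2 fold changes of the 5 genes stayed within the spread between mice under all 130 alternatives. This spread is the SD of log2 CPM between mice and not the SE of the fold change. For Arrdc4 at 24 h the SD was 0.19 and the SE 0.09, so a shift beyond the SE can still lie within the spread. Arrdc2 (2.11 to 2.46), Txnip (0.83 to 1.19) and Arrdc3 (0.53 to 0.67) were called under each of 7 other settings and in each of 19 fits without 1 mouse. Arrdc1 (-0.11 to 0.05) was called in none of them, and Arrdc4 in none of the settings and 1 of the 19 fits (0.28 without mouse 1425). Arrdc4, at 0.24, went to 0.39 with equal weight per column in limma and to 0.05 with equal weight without low columns. In edgeR with low columns left out, the values were 2.30 for Arrdc2, 0.92 for Txnip, 0.64 for Arrdc3 and 0.21 for Arrdc4. Arrdc1 stood at -0.0028 there. At 16 h, 292 of 300 alternatives stayed within the spread between mice. The 8 others came with equal weight per column in limma, where a nearly empty column weighs as much as a full one: for fasted against chow, Arrdc1 -0.49, Arrdc2 -0.43, Arrdc4 -0.57 and Txnip 0.0733, and for fasted against HFD, Arrdc1 -0.22, Arrdc2 -0.28, Arrdc4 -0.62 and Txnip 0.16. The same fit without low columns, chosen after seeing the data, gave 0.32 for Arrdc2 and 0.35 for Txnip (fasted against chow). For fasted against HFD, of 12 fits without 1 mouse, Arrdc2 was called in 2 (0.51 without mouse 7 and 0.52 without mouse 8), Arrdc3 in 1 (0.28 without mouse 8) and Txnip in 1 (0.41 without mouse 14), and limma without low columns called Txnip.

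Over all genes at 24 h, 3307 were called, and 832 with equal weight in limma. At 16 h DESeq2 called 19 genes for fasted against chow and 5 for HFD against chow, where edgeR called 0. For fasted against HFD the count of 65 became 354 with DESeq2, 26 without a filter on low counts, 0 with equal weight in limma, 133 with equal weight without low columns and 0 with cage sums. The causes were not tested. Of the alternatives, 0 reversed a called value.

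No paired analysis was possible because the groups share no mice and no animal numbers. The 16 h cages could be blocked by their round (1 cage per diet): with the round as a covariate, edgeR called 0 genes for fasted and 0 for HFD against chow and 89 for fasted against HFD, and none of the 5 genes in any of them. The sources name no brain area for a column, so no value is given by area or by flowcell (SP and S2 in the 24 h study). Low counts limit Arrdc5 and Gm15441 most.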
